A study of Homo sapiens with 8 samples.

Results

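The 32 genes described here encode enzymes of mevalonate, cholesterol and fatty acid synthesis and the regulators that control them. They were taken by symbol from a table of 25435 genes, by their place in the pathway, and the rule used no measured value. They were, however, chosen with earlier results of these data known. They comprised 19 enzymes of the sterol arm, 7 enzymes of the fatty acid arm and 6 genes called regulators here. STARD4, a carrier of cholesterol, was counted among these 6. Messenger RNA had been sequenced in HGC27, an established human gastric carcinoma line that the labels describe as having no p53. The cells overexpressed the p53 mutant R175H, R248Q or R273H, or GFP as the control, with 2 libraries in each of the 4 groups and 8 in all. The series title speaks instead of p53 KO and KD. The groups used here follow the sample labels and the design text, which describe overexpression, and the difference between these descriptions bears on what a mutant against GFP stands for. By the labels, the absence of cellular p53 was common to all 4 groups, and the labels do not name the vector, the promoter or the number of clones. They do not say whether the 2 libraries of a group came from separate cultures. The p-values therefore measure the spread between these libraries, which may be technical. Because whole cultures were measured, fewer expressing cells and less RNA per cell cannot be told apart.

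Cholesterol is built from acetyl-CoA by way of mevalonate, isoprenoid pyrophosphates, squalene and lanosterol, and fatty acids are built from the same precursor by ACLY, ACACA and FASN. Genes of both arms are targets of the transcription factors SREBP-1 and SREBP-2, encoded by SREBF1 and SREBF2. These factors are made as membrane proteins of the endoplasmic reticulum, where SCAP escorts them to the Golgi for cleavage when sterols are low and INSIG1 and INSIG2 hold SCAP back when sterols are plentiful. SREBP-2 is known mainly for sterol genes and SREBP-1 for fatty acid genes.

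The 5 promoters shown next belong to genes whose levels differed most clearly between the mutants, apart from SREBF2. SREBF2 is the matched member whose window held the string searched for the sterol regulatory element. Each sequence runs 5′ to 3′ on the gene's strand, from 250 bases before to 50 bases after the annotated start, and comes from RefSeq on GRCh38.p14. Capitals mark the sterol regulatory element (TCACNCCAC), the E box (CACGTG) and the CCAAT box (CCAAT, or ATTGG on the other strand). The windows are SREBF2 at chr22:41832855-41833154 on the plus strand, INSIG1 at chr7:155297628-155297927 on the plus strand, HMGCS1 at chr5:43313363-43313662 on the minus strand, MSMO1 at chr4:165327419-165327718 on the plus strand and SCD at chr10:100346983-100347282 on the plus strand.
SREBF2: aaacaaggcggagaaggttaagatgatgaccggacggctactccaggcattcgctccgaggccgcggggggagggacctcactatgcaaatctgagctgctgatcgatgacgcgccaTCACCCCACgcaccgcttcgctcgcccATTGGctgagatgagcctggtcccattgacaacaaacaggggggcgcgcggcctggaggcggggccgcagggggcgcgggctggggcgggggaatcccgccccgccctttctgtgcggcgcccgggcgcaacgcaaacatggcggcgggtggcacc
INSIG1: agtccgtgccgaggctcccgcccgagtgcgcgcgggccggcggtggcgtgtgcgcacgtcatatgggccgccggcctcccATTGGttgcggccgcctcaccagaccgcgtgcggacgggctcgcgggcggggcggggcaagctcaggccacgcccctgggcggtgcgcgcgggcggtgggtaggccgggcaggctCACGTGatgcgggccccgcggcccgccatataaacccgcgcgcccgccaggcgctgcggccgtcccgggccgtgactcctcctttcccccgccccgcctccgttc
HMGCS1: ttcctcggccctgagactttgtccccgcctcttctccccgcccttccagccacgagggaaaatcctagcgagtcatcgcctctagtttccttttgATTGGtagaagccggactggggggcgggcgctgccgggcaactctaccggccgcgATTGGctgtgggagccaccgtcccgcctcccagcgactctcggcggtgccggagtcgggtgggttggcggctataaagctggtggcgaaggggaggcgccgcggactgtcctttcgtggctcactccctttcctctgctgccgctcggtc
MSMO1: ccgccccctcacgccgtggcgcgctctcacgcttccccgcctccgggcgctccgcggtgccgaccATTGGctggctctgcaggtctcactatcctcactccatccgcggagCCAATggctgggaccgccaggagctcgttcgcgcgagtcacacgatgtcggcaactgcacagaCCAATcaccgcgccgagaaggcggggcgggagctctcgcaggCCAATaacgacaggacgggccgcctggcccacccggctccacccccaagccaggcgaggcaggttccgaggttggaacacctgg
SCD: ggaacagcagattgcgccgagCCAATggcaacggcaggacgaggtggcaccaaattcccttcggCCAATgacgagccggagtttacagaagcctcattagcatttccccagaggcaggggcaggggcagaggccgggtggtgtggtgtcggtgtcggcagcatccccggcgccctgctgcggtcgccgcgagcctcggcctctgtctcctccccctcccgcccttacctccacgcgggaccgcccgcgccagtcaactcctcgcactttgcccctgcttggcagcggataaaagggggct

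RefSeq windows were matched for 28 of the 32 genes, in 40 windows because some genes have several starts, and not for FASN, FDFT1, SQLE or ACAT2. Motifs were searched on both strands. The string TCACNCCAC of the sterol regulatory element was present in 1.13% of all 35116 promoter windows. Among the matched members SREBF2 alone held it, where it read TCACCCCAC and began 133 bases before the start. Variants of the element that depart from this string were not searched. The E box was present in 7.26% of all windows, in 3 of 23 sterol windows (LSS and SC5D), in 0 of 10 fatty acid windows and in 2 of 7 regulator windows (INSIG1 and SCAP). In INSIG1 it began 55 bases before the start. The CCAAT box, the motif of NF-Y, was present in 34.6% of all windows, in 16 of 23 sterol windows, in 6 of 10 fatty acid windows and in 3 of 7 regulator windows. MSMO1 carried 4 CCAAT boxes, while HMGCS1 and SCD carried 2 each. A GC box (GGGCGG, not capitalised, which may overlap other motifs) was present in 45% of all windows and in 20 of 23 sterol, 8 of 10 fatty acid and 7 of 7 regulator windows. These matches describe the letters in these windows and not binding.

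The R175H libraries held 6800463 and 9017777 counts, the R248Q libraries 11659301 and 11599907, the R273H libraries 11287251 and 11788035, and the GFP libraries 9769342 and 8928928. Levels are given as CPM (counts scaled to a library of fixed size) after TMM scaling, and 13213 genes, including all 32 members, passed the filter on low counts. The replicates of GFP lay farther apart than those of any mutant, with a chi-square per degree of freedom of 5.72 in GFP against 1.6 in R175H, 1.51 in R273H and 1.21 in R248Q. Across the 916 tested genes with a longest transcript of at least 8000 nt, the median log2 level relative to the GFP mean was 0.20 and 0.15 for the R175H libraries, 0.29 and 0.28 for R248Q, 0.18 and 0.12 for R273H, and -0.13 and 0.13 for GFP. GFP replicate 1 was thus below every other library for long transcripts. Values without it, or ranges over the fits that left out 1 library, are given beside some of the results that they change. The epithelial markers summed to between 10.2 and 14.9 CPM in every library, mostly CLDN7, with EPCAM, KRT18 and KRT19 at or near 0. Of the 6 gastric differentiation markers in the table, 4 had no count and the sum was at most 0.411 CPM. The 5 mesenchymal markers summed to between 4981 and 6055 CPM, mostly VIM, while CDH2 was between 0.206 and 0.854 CPM. The blood and endothelial markers summed to at most 0.665 CPM.

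Per kilobase of longest transcript, SCD, the desaturase that makes monounsaturated fatty acids, had the highest level of the 32 genes in GFP cells, at 501 ± 38.8 CPM per kb (SD, n = 2). It was followed by SQLE at 378 ± 1.54 CPM per kb and by FDPS at 262 ± 17.2 CPM per kb. Lower in the order were SREBF1 at 178 ± 5.65, ACLY at 153 ± 16.4 and FASN at 148 ± 24.4 CPM per kb, of which ACLY and FASN did not differ beyond their spread. The lowest levels were those of INSIG2 at 3.1 ± 0.399, ELOVL6 at 3.72 ± 0.492 and STARD4 at 4.18 ± 0.421 CPM per kb, and the ranges of mean ± SD of neighbours in this order overlapped. Both arms therefore held abundant and scarce transcripts, and the regulators ranged from among the highest (SREBF1) to the lowest (INSIG2).

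**Figure D1:**
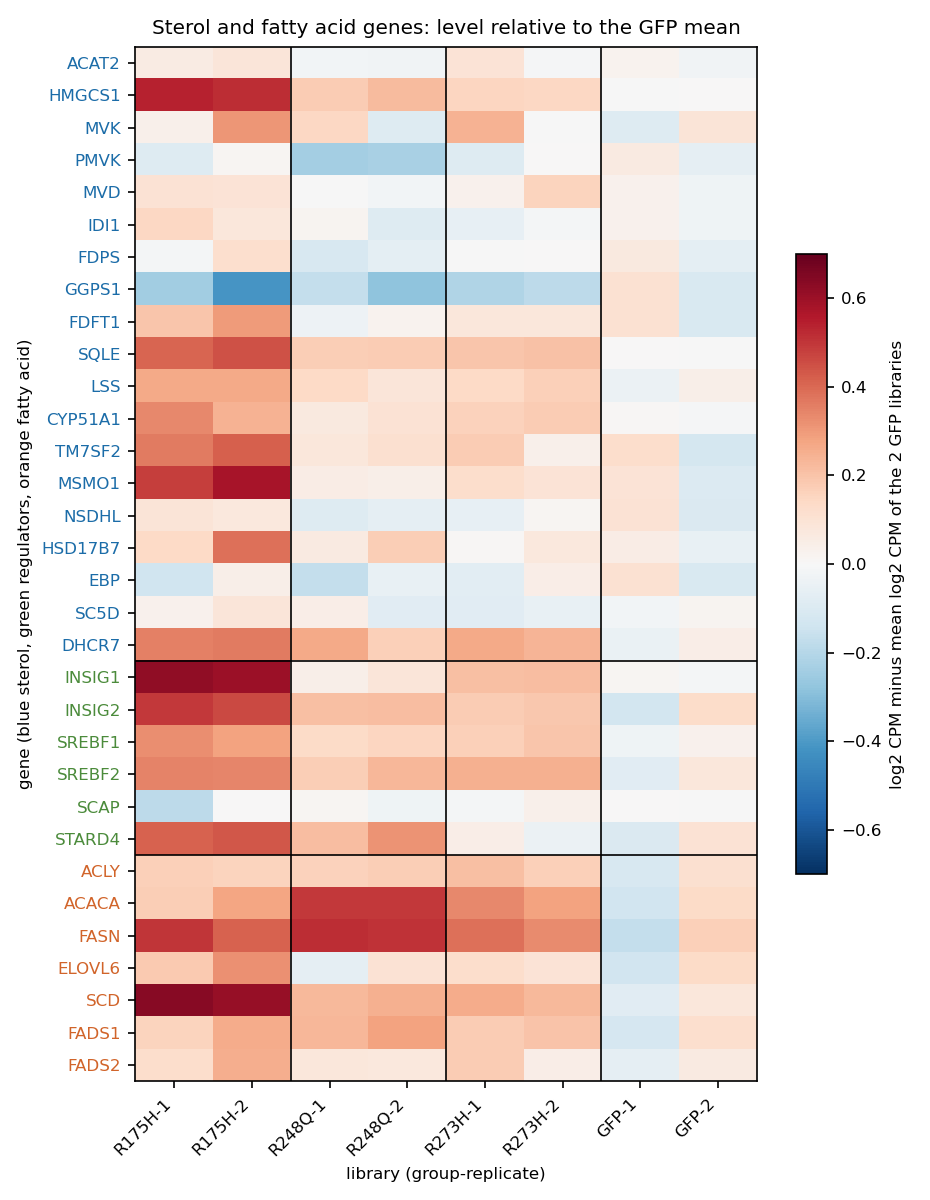
Level of each of the 32 genes (rows) in each library (columns), as log2 CPM minus the mean log2 CPM of the 2 GFP libraries, red for higher and blue for lower. The R175H columns are red over most sterol and regulator rows, the R248Q columns are reddest at FASN and ACACA, and the GFP columns differ from each other in the fatty acid rows.

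In cells with R175H, 8 of 19 sterol genes and 2 of 7 fatty acid genes rose against GFP, together with the transcripts of SREBP-1, SREBP-2 and INSIG1. Of the 32 genes, 14 rose and 1 fell, where 11.0% of all genes tested were called by the same rule, 6.39% higher and 4.59% lower (edgeR quasi-likelihood test, Benjamini-Hochberg adjusted p below 0.05 over all genes). The gene that fell was in the sterol arm, and 4 of 6 regulators rose. DESeq2 called 11 higher and 0 lower. The median log2 fold change was 0.25 over the 32 genes and 0.01 over all genes tested. The largest change, in SCD, was 1.54-fold.

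Among the enzymes up to mevalonate pyrophosphate and its decarboxylation, 1 of 5 rose in R175H. HMGCS1, the synthase that makes HMG-CoA, had 364 and 358 CPM in R175H, 284 and 292 CPM in R248Q and 278 and 277 CPM in R273H, against 249 and 251 CPM in GFP. The R175H libraries were the highest and the GFP libraries the lowest, without overlap between groups at either end. Its log2 fold change in R175H against GFP was 0.53 ± 0.05 (SE; edgeR adjusted p = 7.9e-06). The other enzymes of this stretch, the thiolase ACAT2, the kinases MVK and PMVK and the decarboxylase MVD, had log2 fold changes between -0.04 and 0.19 and did not pass the test.

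Of the 3 enzymes that make and join isoprenoid units, 1 fell in R175H and 0 rose. GGPS1, which makes geranylgeranyl pyrophosphate for protein prenylation and so lies on a side branch from the route to sterols, had 33.2 and 29.5 CPM in R175H, 34.9 and 32.3 CPM in R248Q and 34 and 34.6 CPM in R273H, against 42.3 and 36.5 CPM in GFP. All 6 mutant libraries were below both GFP libraries. It was the member that fell in R175H, by 0.34 ± 0.10 on the log2 scale (edgeR adjusted p = 0.041). That call was lost when any 1 of the 6 mutant libraries or GFP replicate 1 was left out, with log2 fold changes between -0.42 and -0.23, and it was not called by DESeq2 (adjusted p = 0.127). The isomerase IDI1 and the farnesyl pyrophosphate synthase FDPS, which stay on the main route, had log2 fold changes of 0.11 and 0.05 and did not pass the test.

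All 3 enzymes that take farnesyl units to lanosterol rose in R175H. SQLE, the squalene epoxidase and a control point of the pathway, had 1483 and 1523 CPM in R175H, 1261 and 1265 CPM in R248Q and 1281 and 1287 CPM in R273H, against 1121 and 1115 CPM in GFP. Every mutant library was above both GFP libraries and both R175H libraries were above all others. Its log2 fold change in R175H was 0.43 ± 0.05 (edgeR adjusted p = 2.7e-05). LSS, which closes the sterol rings to give lanosterol, had 466 and 466 CPM in R175H, 428 and 412 CPM in R248Q and 428 and 436 CPM in R273H, against 377 and 399.8 CPM in GFP. It too was highest in R175H and lowest in GFP, and its log2 fold change in R175H was 0.26 ± 0.05 (edgeR adjusted p = 0.0047). Leaving out R175H replicate 1 or R175H replicate 2 ended the call, with log2 fold changes of 0.26 and 0.27. FDFT1, the squalene synthase, had 349 and 375 CPM in R175H, 297 and 309.5 CPM in R248Q and 321 and 322 CPM in R273H, against 328 and 283 CPM in GFP. The R175H libraries were above the rest, whereas those of R248Q and R273H lay between the GFP values. Its log2 fold change in R175H was 0.24 ± 0.07 (edgeR adjusted p = 0.028). It was not called when any 1 of the 6 mutant libraries was left out, with values between 0.19 and 0.30, and it was 0.15 without GFP replicate 2.

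Of the 8 enzymes after lanosterol, 4 rose in R175H. MSMO1, which removes methyl groups from lanosterol products, had 147 and 157 CPM in R175H, 109 and 109 CPM in R248Q and 115 and 113 CPM in R273H, against 113 and 98.6 CPM in GFP. The R175H libraries stood above the other 6, among which the groups overlapped with GFP. Its log2 fold change in R175H was 0.53 ± 0.07 (edgeR adjusted p = 0.00017). DHCR7, the reductase that makes cholesterol in the last step, had 249 and 252 CPM in R175H, 235 and 219 CPM in R248Q and 234 and 230.0 CPM in R273H, against 189 and 201 CPM in GFP. Every mutant library was above both GFP libraries, and the log2 fold change in R175H was 0.36 ± 0.06 (edgeR adjusted p = 0.0011).

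Lower on the scale of abundance, TM7SF2, a sterol reductase, had 41.6 and 43.3 CPM in R175H, 34.2 and 35 CPM in R248Q and 36.6 and 33.1 CPM in R273H, against 35.2 and 29.7 CPM in GFP. The R175H libraries were the highest, and the other mutants overlapped with GFP. Its log2 fold change in R175H was 0.39 ± 0.10 (edgeR adjusted p = 0.019), and the call ended on leaving out R175H replicate 1 (0.41) or R175H replicate 2 (0.36) and with DESeq2 (0.38, adjusted p = 0.066). CYP51A1, the lanosterol demethylase, had 66.5 and 62.4 CPM in R175H, 55.2 and 56.5 CPM in R248Q and 59 and 59.8 CPM in R273H, against 53 and 52.5 CPM in GFP. The groups did not overlap, with R175H highest and GFP lowest. Its log2 fold change in R175H was 0.29 ± 0.07 (edgeR adjusted p = 0.022), and leaving out either R175H library ended the call at 0.24 and 0.34, as did DESeq2 (0.28, adjusted p = 0.0999). The remaining 4 enzymes, the dehydrogenase NSDHL, the ketosteroid reductase HSD17B7, the isomerase EBP and the desaturase SC5D, had log2 fold changes between -0.05 and 0.28 in R175H, none past the threshold.

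**Figure D2:**
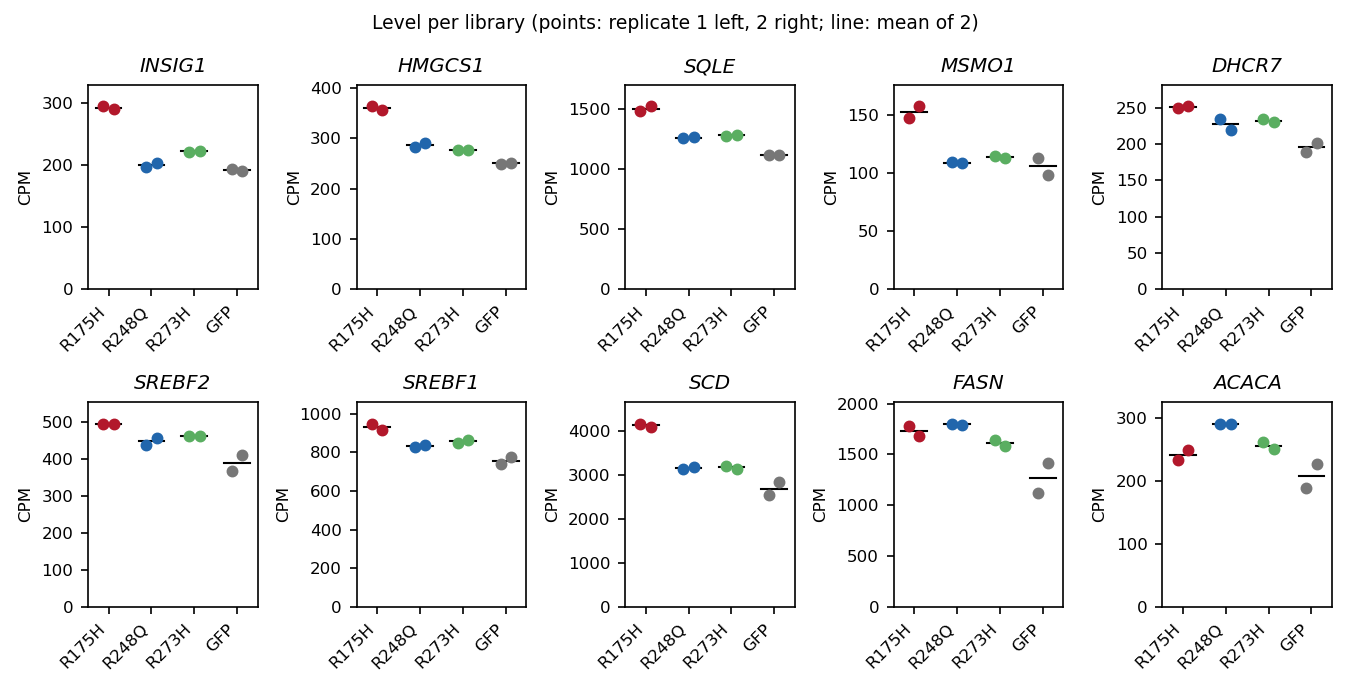
TMM-scaled CPM of 10 of the genes in each library, with a point per library and a line at the mean of each group, on axes that start at 0. INSIG1, HMGCS1, SQLE, MSMO1 and SCD were highest in the 2 R175H libraries, whereas FASN and ACACA were highest in the 2 R248Q libraries and differed between the 2 GFP libraries.

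Among the regulators, INSIG1 changed most in R175H. INSIG1, itself a target of the SREBPs as well as their brake, had 295 and 290.5 CPM in R175H, 197 and 204 CPM in R248Q and 222 and 222 CPM in R273H, against 193 and 190.1 CPM in GFP. The 4 groups did not overlap, and R248Q was close to GFP. The log2 fold change in R175H was 0.61 ± 0.05 (edgeR adjusted p = 2.5e-06), a 1.53-fold level. INSIG2, a related protein with the same role, had 11.4 and 11.1 CPM in R175H, 9.29 and 9.34 CPM in R248Q and 9.07 and 9.14 CPM in R273H, against 7.3 and 8.76 CPM in GFP. R175H was again highest and GFP lowest, without overlap. At this low level the R175H difference, a log2 fold change of 0.49 ± 0.16, did not pass the test (edgeR adjusted p = 0.056).

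SREBF2 had 497 and 495 CPM in R175H, 440.0 and 459 CPM in R248Q and 463 and 463 CPM in R273H, against 369 and 412 CPM in GFP. SREBF1 had 949 and 919 CPM in R175H, 829.8 and 840.1 CPM in R248Q and 849 and 867 CPM in R273H, against 741 and 774 CPM in GFP. For both genes every mutant library was above both GFP libraries and R175H was the highest group. The log2 fold changes in R175H were 0.34 ± 0.06 for SREBF2 (edgeR adjusted p = 0.0013) and 0.30 ± 0.05 for SREBF1 (edgeR adjusted p = 0.0011). Over the fits that left out 1 library they ranged from 0.27 to 0.42 for SREBF2 and from 0.27 to 0.33 for SREBF1.

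SCAP, the escort of the SREBPs, had 94.3 and 107 CPM in R175H, 108 and 105 CPM in R248Q and 106 and 109.5 CPM in R273H, against 107 and 107 CPM in GFP. These groups overlapped, and no comparison of SCAP passed the test. STARD4, a carrier of cholesterol between membranes, had 25.7 and 26 CPM in R175H, 22.3 and 23.9 CPM in R248Q and 19.8 and 18.7 CPM in R273H, against 17.9 and 20.6 CPM in GFP. R273H overlapped with GFP, and R175H was the highest group. The log2 fold change of STARD4 in R175H was 0.43 ± 0.11 (edgeR adjusted p = 0.02). That call was lost without GFP replicate 1, where the value was 0.33, and on leaving out either R175H replicate, with no value above 0.44. DESeq2 did not call it either (0.42, adjusted p = 0.103).

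In the fatty acid arm, SCD and FASN rose in R175H. SCD had 4173 and 4099.9 CPM in R175H, 3136 and 3185 CPM in R248Q and 3208 and 3144 CPM in R273H, against 2539 and 2834 CPM in GFP. The R175H libraries were far above the others, R248Q and R273H overlapped, and GFP was lowest. The log2 fold change in R175H was 0.62 ± 0.05 (edgeR adjusted p = 1.9e-06). It ranged from 0.55 to 0.70 over the fits that left out 1 library. FASN, the multifunctional synthase that makes palmitate, had 1782 and 1678 CPM in R175H, 1804 and 1790.0 CPM in R248Q and 1646 and 1582 CPM in R273H, against 1120.0 and 1416 CPM in GFP. All 6 mutant libraries were above both GFP libraries, and the GFP libraries lay farther apart than any other pair. The log2 fold change of FASN in R175H was 0.45 ± 0.08 (edgeR adjusted p = 0.0016). It was 0.29 without GFP replicate 1 and 0.63 without GFP replicate 2, and the call held in each. The other 5 enzymes, ACLY (which makes acetyl-CoA from citrate), ACACA, the elongase ELOVL6 and the desaturases FADS1 and FADS2, had log2 fold changes between 0.16 and 0.26 in R175H and did not pass the test.

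Across these R175H calls, 8 of 15 (SCD, INSIG1, HMGCS1, SQLE, MSMO1, FASN, DHCR7 and SREBF2) held under every alternative in which they were tested, and SREBF1 was lost only when the fit was restricted to the R175H and GFP libraries. The number of members that rose was smaller on leaving out either R175H library, and so was the number over all genes tested.

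In cells with R248Q, 3 of 7 fatty acid genes and 3 of 19 sterol genes rose against GFP. Of the 32 genes, 7 rose and 0 fell, where 6.32% of all genes tested were called, 4.88% higher and 1.44% lower. The risers were FASN, ACACA and SCD of 7 fatty acid genes, HMGCS1, SQLE and DHCR7 of 19 sterol genes, and SREBF2 of 6 regulators. The median log2 fold change was 0.23 in the fatty acid arm, -0.01 in the sterol arm and -0.01 over all genes tested. DESeq2 called 3 of the 32 genes higher, all of the fatty acid arm, and limma-voom 7.

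ACACA, the carboxylase that makes malonyl-CoA, had 292 and 291 CPM in R248Q, 262 and 251 CPM in R273H and 233 and 250.3 CPM in R175H, against 188 and 227 CPM in GFP. The R248Q libraries were the highest and the GFP libraries the lowest. The log2 fold change of ACACA in R248Q against GFP was 0.49 ± 0.07 (edgeR adjusted p = 0.00066). For FASN, whose levels are given above, it was 0.50 ± 0.08 (edgeR adjusted p = 0.00088). These 2 calls held under every alternative tested, and their sizes varied with the treatment of transcript length: with a correction for length they were 0.20 for ACACA and 0.28 for FASN, and without GFP replicate 1 they were 0.36 for ACACA and 0.34 for FASN. Their longest transcripts were 9961 and 8565 nt, and the median over the 916 genes of at least 8000 nt was 0.29 for R248Q against GFP. Over all genes tested, 645 rose and 190 fell in R248Q, against 407 and 457 with the correction. The part of transcript length in the rise of ACACA and FASN beyond that correction was not tested.

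The other R248Q calls were smaller and less stable. SCD had a log2 fold change of 0.23 ± 0.05 (edgeR adjusted p = 0.014), which was not called without R248Q replicate 1 or without R248Q replicate 2 (values between 0.23 and 0.25) and was 0.15 with the length correction. Over all the fits that left out 1 library, SCD ranged from 0.16 to 0.32. HMGCS1 at 0.20 ± 0.05, SQLE at 0.18 ± 0.05 and DHCR7 at 0.22 ± 0.06 had edgeR adjusted p between 0.03 and 0.036, and each was lost when any 1 of the 6 mutant libraries was left out. Their values were then between 0.18 and 0.23 for HMGCS1, 0.18 in every case for SQLE and between 0.17 and 0.27 for DHCR7. SREBF2 at 0.20 ± 0.06 (edgeR adjusted p = 0.048) was lost in the same way and also without GFP replicate 1, where it was 0.13. It was lost too with the length correction, at 0.12, and at 0.097 with that correction and without GFP replicate 1. INSIG1 and MSMO1, which changed strongly in R175H, had log2 fold changes of 0.06 ± 0.05 and 0.04 ± 0.07 in R248Q and did not pass the test. The number of members that rose was smaller without any 1 of the 6 mutant libraries, and so was the number over all genes tested. Without GFP replicate 2, more members and more of all genes were called in both directions.

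In cells with R273H, FASN and SCD rose against GFP. By edgeR, 0 of 19 sterol genes and 0 of 6 regulators passed the test, and DESeq2 likewise called none of either. An unadjusted edgeR p below 0.05 was found for 6 sterol genes and 3 regulators, and for 1682 of all 13213 genes tested. Thus 2 of 32 genes rose and 0 fell, where 1.01% of all genes tested were called, 0.757% higher and 0.250% lower, and limma-voom called 5 higher. FASN had a log2 fold change of 0.35 ± 0.08 (edgeR adjusted p = 0.04) and SCD of 0.24 ± 0.05 (edgeR adjusted p = 0.037). Over all the fits that left out 1 library, FASN ranged from 0.19 to 0.53 and SCD from 0.16 to 0.32. Both calls were lost when any 1 of the 6 mutant libraries was left out, with values between 0.32 and 0.38 for FASN and between 0.23 and 0.26 for SCD, and 0 members rose in each of those fits. Over all genes tested, fewer genes also rose in those fits than the 100 that rose with all 8 libraries. Without GFP replicate 1, FASN was 0.19, and without GFP replicate 2 it was 0.53. In both of these fits more members rose, and so did more of all genes tested.

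Several sterol genes and regulators in R273H lay just short of the threshold. DHCR7 had a log2 fold change of 0.25 ± 0.06 (edgeR adjusted p = 0.053), SREBF2 of 0.25 ± 0.06 (edgeR adjusted p = 0.057), SQLE of 0.20 ± 0.05 (edgeR adjusted p = 0.057) and INSIG1 of 0.21 ± 0.05 (edgeR adjusted p = 0.077). In each of these 4 genes both R273H libraries were above both GFP libraries. These 4 were taken for their low p, and the share of all genes set apart in this way was not counted. The median log2 fold change was 0.19 in the fatty acid arm, 0.07 in the sterol arm and 0.18 in the regulators, against -0.0015 over all genes tested.

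**Figure D3:**
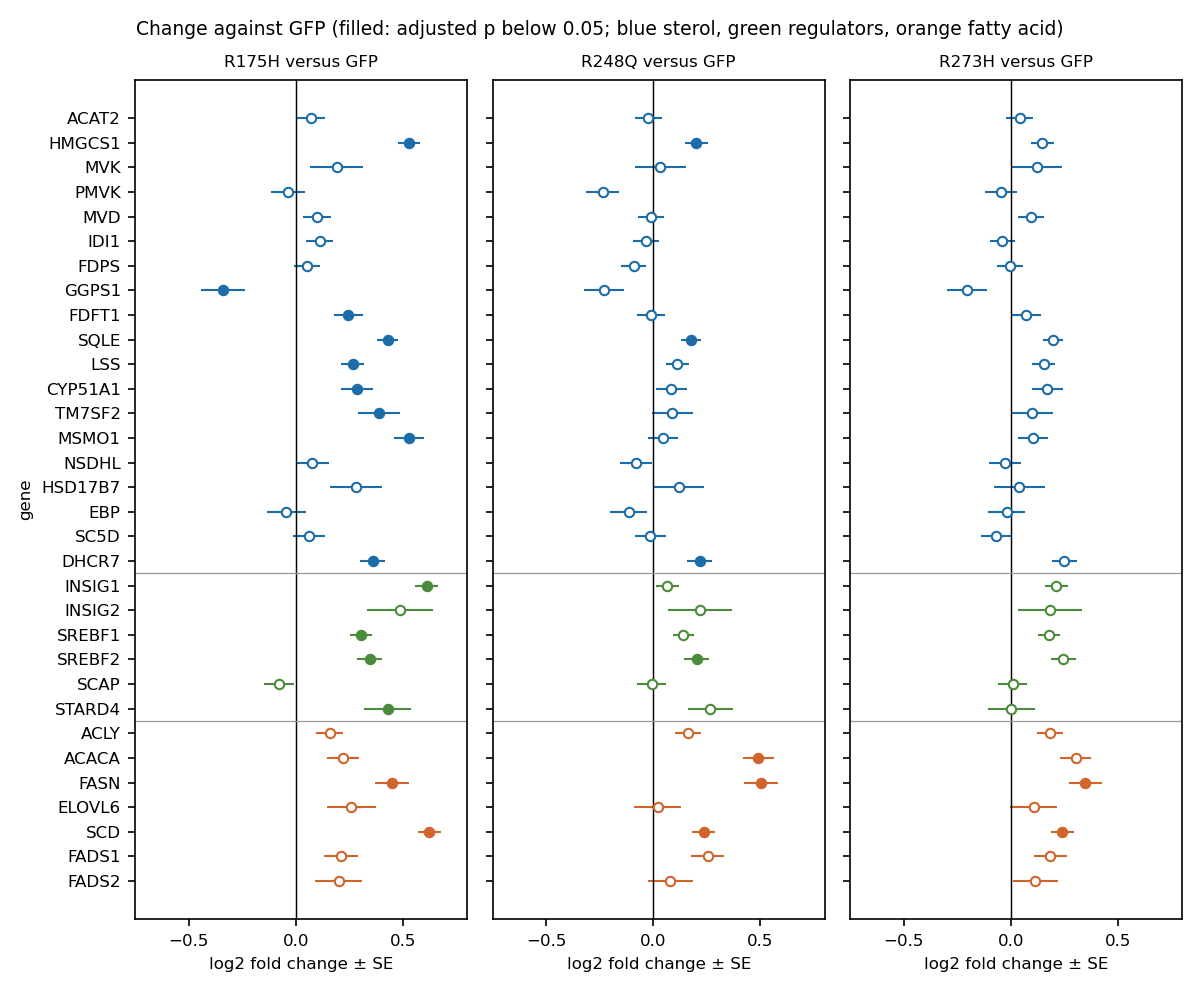
Log2 fold change of each gene against GFP with its SE (n = 2 libraries a group) in R175H, R248Q and R273H, where filled points have an adjusted p below 0.05. Filled points number 15 in R175H, 7 in R248Q and 2 in R273H, and FASN and SCD are filled in all 3 panels.

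Against the mean of the 3 mutants, 12 of 32 genes rose relative to GFP and 0 fell, where 8.26% of all genes tested were called, 5.21% higher and 3.04% lower. FASN had a log2 fold change of 0.43 ± 0.07 (edgeR adjusted p = 0.00073), which was 0.27 without GFP replicate 1. SCD had 0.37 ± 0.04 and ACACA 0.34 ± 0.06 (edgeR adjusted p = 0.00017 and 0.0034), and ACACA was 0.21 without GFP replicate 1. SCD ranged from 0.29 to 0.45 over the fits that left out 1 library. With the length correction and without GFP replicate 1, ACACA was 0.12 and was not called (edgeR adjusted p = 0.0644). DESeq2 called 10 of the 32 genes higher. INSIG1, HMGCS1, DHCR7, SQLE, SREBF2, MSMO1, SREBF1, LSS and FADS1 also rose, by 0.18 to 0.30 on the log2 scale. FADS1, the desaturase that acts in the making of arachidonic acid, was called in this comparison alone (0.22 ± 0.06, edgeR adjusted p = 0.046). FADS1 was lost without any 1 of the 6 mutant libraries, with values between 0.20 and 0.23, and without GFP replicate 1, where it was 0.10, and with DESeq2 (adjusted p = 0.106). MSMO1 was lost without R175H replicate 2, without any 1 library of R248Q or R273H and without GFP replicate 2, with values between 0.13 and 0.23, and with DESeq2 (adjusted p = 0.0545), and LSS was lost without any 1 of the 6 mutant libraries, with values between 0.17 and 0.19. The 3 comparisons with GFP share the same 2 GFP libraries, so that a deviation in those libraries enters all of them and this mean alike.

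Comparisons between mutants do not use the GFP levels. R248Q differed from R175H in 7 of the 32 genes, where 7.17% of all genes tested differed: 6 were lower and 1 was higher in R248Q, where 3.95% of all genes were lower and 3.22% higher. INSIG1 fell by 0.54 ± 0.05 on the log2 scale (edgeR adjusted p = 7.9e-06), to 0.69 times the R175H level. MSMO1 fell by 0.485 ± 0.07 (edgeR adjusted p = 0.00033) and SCD by 0.39 ± 0.05 (edgeR adjusted p = 0.00025). For these 3 genes both R248Q libraries were below both R175H libraries, and the calls held under every alternative tested.

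HMGCS1 fell by 0.33 ± 0.05 in R248Q against R175H (edgeR adjusted p = 0.00095), a call lost only without R248Q replicate 1 (-0.30). SQLE fell by 0.25 ± 0.05 (edgeR adjusted p = 0.0037), lost without R175H replicate 2, R248Q replicate 1 or R248Q replicate 2 (values between -0.25 and -0.23). FDFT1 fell by 0.26 ± 0.07 (edgeR adjusted p = 0.028), lost without any 1 of the 6 mutant libraries (values between -0.31 and -0.20). ACACA was the gene that was higher in R248Q than in R175H, by 0.27 ± 0.07 (edgeR adjusted p = 0.035), and it too was lost without any 1 of the 6 mutant libraries (values between 0.22 and 0.32). FASN differed by 0.06 ± 0.08 and did not pass the test, so that within the fatty acid arm ACACA and SCD differed in opposite directions and FASN showed no detectable difference. Of the 19 sterol genes 18 had a log2 fold change below 0, with a median of -0.16, against a median of 0.0018 over all genes tested.

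R273H differed from R175H in 6 of the 32 genes, all lower in R273H, where 3.63% of all genes tested differed, 2.22% lower and 1.41% higher. INSIG1 fell by 0.40 ± 0.05 (edgeR adjusted p = 0.00032), SCD by 0.38 ± 0.05 (edgeR adjusted p = 0.0005) and HMGCS1 by 0.38 ± 0.05 (edgeR adjusted p = 0.00042). In each of these the R273H libraries were below the R175H libraries without overlap, and the calls held under every alternative tested. MSMO1 fell by 0.42 ± 0.07 (edgeR adjusted p = 0.0019), which was lost without R175H replicate 2 or R273H replicate 2 (values between -0.41 and -0.37). STARD4 fell by 0.43 ± 0.11 (edgeR adjusted p = 0.036) and SQLE by 0.23 ± 0.05 (edgeR adjusted p = 0.011), and both were lost without any 1 of the 6 mutant libraries, with values between -0.46 and -0.38 for STARD4 and between -0.25 and -0.21 for SQLE. STARD4 was not called by DESeq2 (adjusted p = 0.209). The median log2 fold change was -0.11 in the sterol arm, -0.08 in the fatty acid arm and -0.21 in the regulators, against -0.0019 over all genes tested.

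These numbers of calls changed with the library left out, and the cause was not tested. For R248Q against R175H, more members were lower without GFP replicate 1 or GFP replicate 2 than with all 8 libraries. Fewer were lower without R248Q replicate 1, R248Q replicate 2 or R175H replicate 2. The number lower over all genes tested, 522 with all 8 libraries, moved the same way in each of these fits. For R273H against R175H, more members were lower without GFP replicate 1 or GFP replicate 2, and fewer without R175H replicate 2 or R273H replicate 2. The number lower over all genes tested, 293 with all 8 libraries, again moved the same way.

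R273H and R248Q were not distinguished in these genes: 0 of 32 passed the edgeR test, where 0.151% of all genes tested did (0.00757% higher and 0.144% lower). An unadjusted edgeR p below 0.05 was found for 4 members (PMVK, INSIG1, STARD4 and ACACA) and for 1065 of all 13213 genes tested. DESeq2 and limma-voom likewise called 0 members. The largest difference was in STARD4, at -0.26 ± 0.10 (edgeR adjusted p = 0.52). ACACA was lower in R273H by 0.19 ± 0.07 and INSIG1 higher by 0.15 ± 0.05 (edgeR adjusted p = 0.53 and 0.47). Without GFP replicate 1 or GFP replicate 2, members were called in both directions, and more of all genes tested were called as well.

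**Figure D4:**
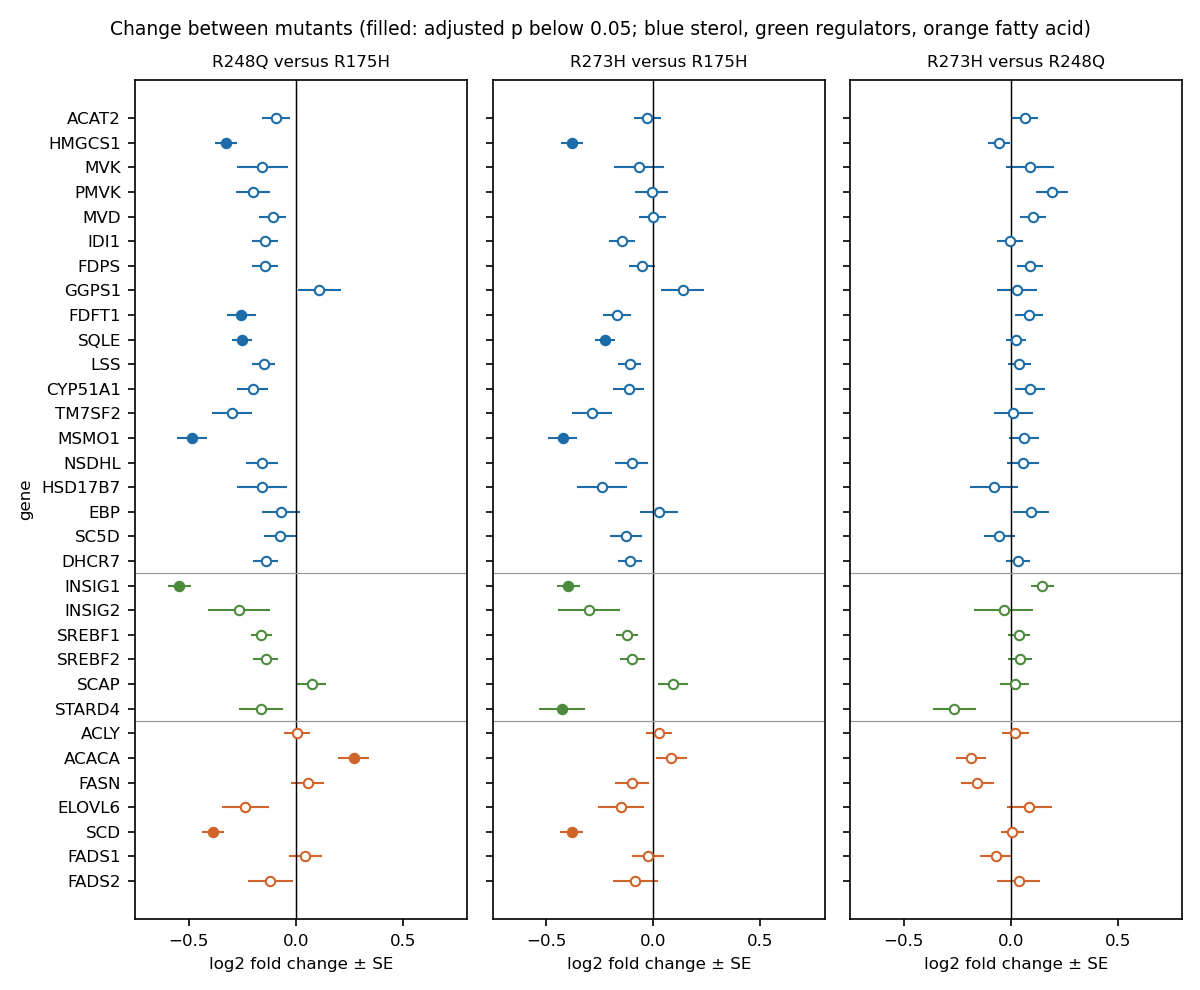
Log2 fold change of each gene between mutants with its SE (n = 2 libraries a group), where filled points have an adjusted p below 0.05. The points of INSIG1, MSMO1, HMGCS1, SQLE and SCD are filled on the negative side for R248Q and R273H against R175H, ACACA is the filled point on the positive side, and no point is filled for R273H against R248Q.

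The sterol and fatty acid arms were then set side by side, as medians of their members relative to the GFP mean in each library. The fatty acid median was 0.17 and 0.27 for R175H, 0.23 and 0.25 for R248Q and 0.21 and 0.20 for R273H, against -0.12 and 0.12 for GFP. The sterol median was 0.14 and 0.24 for R175H, 0.05 and -0.02 for R248Q and 0.08 and 0.05 for R273H, against 0.03 and -0.03 for GFP. The arms thus moved by like amounts in R175H, while in R248Q and R273H the fatty acid arm lay above the sterol arm. The sterol minus fatty acid difference was -0.03 and -0.03 for R175H, -0.18 and -0.27 for R248Q and -0.13 and -0.15 for R273H, against 0.14 and -0.14 for GFP. The R248Q and R273H libraries were below both R175H libraries in this difference, yet GFP replicate 2 lay between the R273H libraries. The pooled SD between replicates was 0.05 for the sterol median, 0.09 for the fatty acid median and 0.11 for their difference.

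Summed over its 7 genes, of which SCD was the most abundant, the fatty acid arm held 7074 and 6922 CPM in R175H, 6115 and 6160.3 CPM in R248Q and 6026 and 5863 CPM in R273H, against 4580.3 and 5330.2 CPM in GFP. The sterol arm summed to 4328 and 4450 CPM in R175H, 3798 and 3783 CPM in R248Q and 3885 and 3909 CPM in R273H, against 3649 and 3536 CPM in GFP. In both sums R175H was highest and GFP lowest, without overlap.

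The arms also differed in transcript length, a property that moved with the GFP libraries. The median longest transcript was 5362 nt in the fatty acid arm (from 3630 to 9961 nt) and 2660 nt in the sterol arm (from 1190 to 4936 nt), against 3394 nt over all tested genes. In R248Q against GFP the difference between the arms' medians was -0.24, and it was -0.10 with the length correction, -0.12 without GFP replicate 1 and -0.35 without GFP replicate 2. In R273H against GFP it was -0.11, and it was 0.02 without GFP replicate 1 and -0.32 without GFP replicate 2. In R175H against GFP it was -0.03, and it was 0.05 without GFP replicate 1 and -0.22 without GFP replicate 2. Without GFP replicate 1, the fatty acid median itself was 0.13 for R175H, 0.14 for R248Q and 0.08 for R273H. Between R248Q and R175H, where no GFP level enters, the sterol minus fatty acid difference was -0.16. It ranged from -0.20 to -0.14 over the 8 fits that left out a library. The medians there were -0.16 in the sterol arm and 0.0045 in the fatty acid arm. Between R273H and R175H they lay closer together, at -0.11 in the sterol arm and -0.08 in the fatty acid arm.

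**Figure D5:**
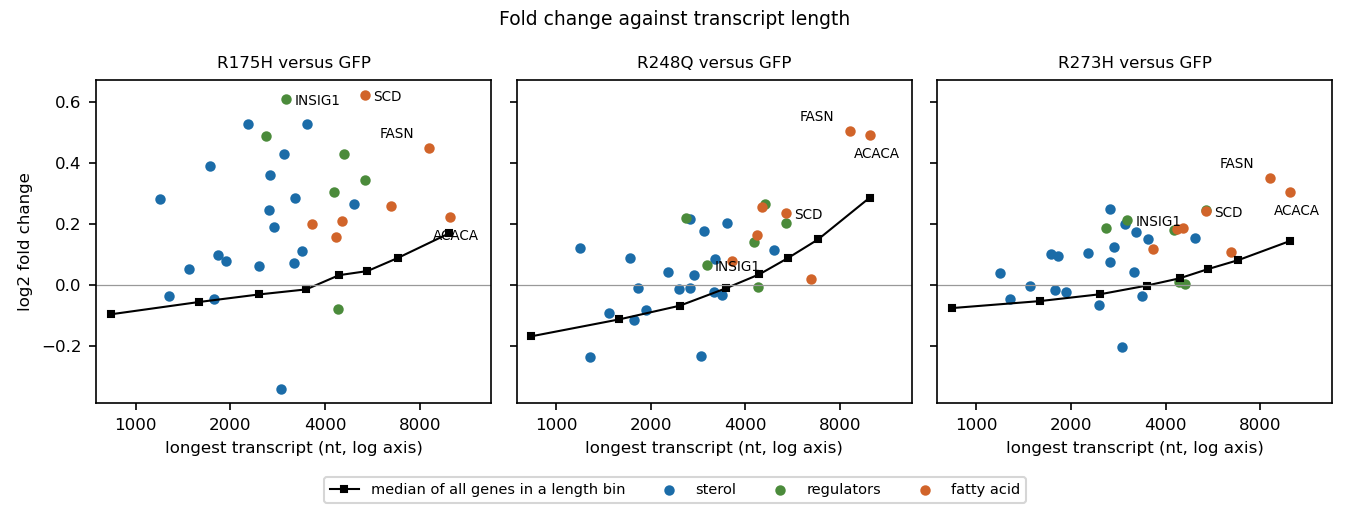
Log2 fold change against GFP of the 32 genes plotted over the longest transcript (nt, log axis), with black squares at the median of all tested genes in bins of length. The squares rise with length in all 3 panels, to 0.29 in R248Q for genes of at least 8000 nt, and FASN and ACACA lie above the line at its right end in R248Q.

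With the length correction, the R175H changes of the regulator INSIG1 and the sterol genes MSMO1, HMGCS1 and SQLE were close to those without it. INSIG1 was 0.62, MSMO1 0.56, HMGCS1 0.52 and SQLE 0.44. SCD was 0.56 and FASN 0.31 in the same comparison. All 6 genes were called in R175H against GFP in that fit.

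Genes that surround the pathway were examined as 4 lists, 57 genes in all, each gene of which was tested. In R175H against GFP, 7 of 20 genes of fatty acid supply, elongation and lipid assembly rose and 1 fell. In the next lists, 3 of 12 genes of sterol export and storage and 1 of 10 genes of SREBP processing rose. Of the isoprenoid branches and electron donors, 0 of 15 genes passed by edgeR, DESeq2 or limma-voom. Of these 15, 3 had an unadjusted edgeR p below 0.05, as did 3467 of all 13213 genes tested. Over the 4 lists 11 of 57 rose and 1 fell, where 6.39% of all genes tested rose and 4.59% fell, and DESeq2 called 7 higher and 0 lower. In the list of fatty acid supply DESeq2 called 3 higher, against 7 by edgeR. The 1 of 10 in SREBP processing is near the share over all genes. The median log2 fold changes of these lists were 0.11, 0.10, 0.10 and -0.09.

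ACSL1, which activates long-chain fatty acids, had 217 and 218 CPM in R175H, 180.0 and 177 CPM in R248Q and 185 and 189.8 CPM in R273H, against 165 and 168 CPM in GFP. ACSS2, which makes acetyl-CoA from acetate, had 59.2 and 56.9 CPM in R175H, 44 and 40.7 CPM in R248Q and 43.8 and 44.7 CPM in R273H, against 40.7 and 45 CPM in GFP. R175H was the highest group for both, and R248Q and R273H overlapped with GFP for ACSS2. The log2 fold changes in R175H were 0.39 ± 0.06 for ACSL1 (edgeR adjusted p = 0.00033) and 0.44 ± 0.08 for ACSS2 (edgeR adjusted p = 0.0033), and both held under every alternative tested. Both were also lower in the other mutants than in R175H: ACSS2 fell by 0.45 ± 0.08 in R248Q (edgeR adjusted p = 0.0027) and by 0.39 ± 0.08 in R273H (edgeR adjusted p = 0.012), and ACSL1 by 0.28 ± 0.05 in R248Q (edgeR adjusted p = 0.0044) and by 0.22 ± 0.05 in R273H (edgeR adjusted p = 0.037). ACSS2 was lost in R248Q against R175H without R248Q replicate 2 (-0.39) and in R273H against R175H without any 1 library of either group (values between -0.42 and -0.36). ACSL1 was lost in R248Q against R175H without R175H replicate 2, R248Q replicate 1 or R248Q replicate 2 (values between -0.29 and -0.27) and in R273H against R175H without any 1 of the 6 mutant libraries (values between -0.23 and -0.19) and with DESeq2 (adjusted p = 0.118).

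LPIN1, a phosphatidate phosphatase of glycerolipid synthesis, rose by 0.36 ± 0.09 in R175H (edgeR adjusted p = 0.018) and by 0.31 ± 0.09 in R248Q (edgeR adjusted p = 0.046). Without GFP replicate 1 it was 0.21 in R175H and 0.16 in R248Q and was not called. It was also lost in R175H without R175H replicate 1 or R175H replicate 2, with no value above 0.38, and in R248Q without any 1 of the 6 mutant libraries, with no value above 0.34. In R248Q it was lost too with DESeq2 (adjusted p = 0.0982) and with the length correction (0.21). ACSL3, another long-chain acyl-CoA synthetase, rose by 0.20 ± 0.06 in R175H (edgeR adjusted p = 0.031) and was lost without any 1 of the 6 mutant libraries (values between 0.18 and 0.22), with DESeq2 (adjusted p = 0.0919) and with the length correction (0.13). The gene of this list that fell, named after its values were seen, was the elongase ELOVL1 (-0.21 ± 0.06 in R175H, edgeR adjusted p = 0.039). ELOVL1 was lost without any 1 of the 6 mutant libraries (values between -0.21 and -0.20) and without GFP replicate 1 (-0.18), and with DESeq2 (adjusted p = 0.112).

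In the export list, ABCA1, which passes cholesterol to apolipoprotein A-I, had 97.8 and 93 CPM in R175H, 92.3 and 95.9 CPM in R248Q and 81.3 and 77.4 CPM in R273H, against 55.9 and 76.4 CPM in GFP. All mutant libraries were above both GFP libraries, and GFP replicate 1 was far below GFP replicate 2. ABCA1 rose by 0.53 ± 0.10 in R175H (edgeR adjusted p = 0.0039) and by 0.51 ± 0.10 in R248Q (edgeR adjusted p = 0.0056). These were 0.32 in R175H and 0.30 in R248Q without GFP replicate 1, still called. The R175H call was lost without R175H replicate 1 (0.49), and the R248Q call without R248Q replicate 1 or R248Q replicate 2 (values between 0.49 and 0.54) and with the length correction (0.20). Its longest transcript is 10494 nt.

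NPC1, which exports cholesterol from lysosomes, rose by 0.42 ± 0.09 in R175H (edgeR adjusted p = 0.0061), lost without R175H replicate 1 or R175H replicate 2 (values between 0.42 and 0.43). NPC1 ranged from 0.30 to 0.55 over all the fits that left out 1 library. ABCG1, another sterol exporter, rose by 0.41 ± 0.09 in R175H (edgeR adjusted p = 0.0098), was 0.27 without GFP replicate 1 and was lost without R175H replicate 1 (0.32). ABCG1 was lower in R248Q than in R175H by 0.43 ± 0.09 (edgeR adjusted p = 0.0085), a call lost without R175H replicate 1, R248Q replicate 1 or R248Q replicate 2 (values between -0.48 and -0.34). The genes of the LXR receptors that drive these exporters, NR1H2 and NR1H3, did not pass the test in any comparison.

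Among genes of SREBP processing, RNF139, a ubiquitin ligase of the endoplasmic reticulum, rose by 0.21 ± 0.05 in R175H (edgeR adjusted p = 0.019), lost without R175H replicate 1 or 2, R248Q replicate 1 or 2 or R273H replicate 1 (values between 0.18 and 0.25). The proteases that cleave SREBPs, MBTPS1 and MBTPS2, did not pass the test in any comparison. In R248Q against GFP, ABCA1 and LPIN1 were the only 2 of the 57 genes that passed. In R273H against GFP 0 passed by edgeR, DESeq2 or limma-voom. There 6 of the 57 had an unadjusted edgeR p below 0.05, as did 1682 of all 13213 genes tested. Over all genes tested, 6.32% were called in R248Q against GFP and 1.01% in R273H against GFP, so these counts in the 57 genes did not exceed the share over all genes.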

How the data were processed

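Messenger RNA libraries had been made with a Kapa mRNA kit per the labels' protocols, and the submitters' processing notes list bcl2fastq, STAR 2.5 and hg19. The deposited table holds raw counts for each gene. No source used here states the counter, annotation or strand setting, so overlapping genes on opposite strands are uncertain. Results for the p53 construct and some other genes are not reported here.

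The 32 genes and the 4 other lists were chosen with earlier results of these data known. In R 4.3.3, edgeR 4.0.16 (filterByExpr with minimum count 10 and total 15, TMM, quasi-likelihood test, group means, all 8 libraries, 4 residual degrees of freedom) was fitted to 13213 genes. Calls required an adjusted p (Benjamini-Hochberg, over all genes) below 0.05. The SE was taken as the size of the log2 fold change over the square root of F. Values in every library are given for members called between a mutant and GFP or between mutants (at most 20), and for SREBF1, SREBF2, SCAP, INSIG1, INSIG2, FASN and SCD. Up to 4 called genes of each other list are named, by lowest p. Total counts ran between 6800463 and 11788035.

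Alternatives changed the scaling (size factors of DESeq2, or library size alone), the filter (every gene with at least 1 count, or mean CPM at or above 1), the tool (DESeq2 1.42.0, limma-voom 3.58.1), the libraries fitted (the compared groups only, or each library left out) and the model (replicate block, or a loess correction for transcript length with span 0.3, with and without GFP replicate 1). They also took ACLY out of the fatty acid arm and added INSIG1 and STARD4 to the sterol arm. Lengths are those of the longest GENCODE 29 transcripts, matched for 97.2% of tested genes. The fit was tested on simulated data with changes larger than most of those reported here. Of its 185 calls there, 11 were false. Its recovery of smaller changes was not tested.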

Additional observations from a re-analysis of the deposited data

Results flagged for a closer look

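The libraries of R248Q and R273H differed from those of R175H in named members, by the edgeR test of the difference itself. In R248Q relative to R175H the log2 difference was -0.54 for INSIG1, -0.485 for MSMO1, -0.39 for SCD, -0.33 for HMGCS1, -0.26 for FDFT1 and -0.25 for SQLE, and it was 0.27 for ACACA. In R273H relative to R175H it was -0.43 for STARD4, -0.42 for MSMO1, -0.40 for INSIG1, -0.38 for SCD, -0.38 for HMGCS1 and -0.23 for SQLE. FDFT1 and ACACA in R248Q, and STARD4 and SQLE in R273H, were lost when any 1 of the 6 mutant libraries was left out. Some of the other calls were lost in fewer such fits. Each group had 2 libraries, too few to look for a library far from the others.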

How the results depend on the processing

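With 2 libraries a group and a pooled spread, many calls were near the threshold: of 68 calls of named genes, 30 held whichever library was left out, 38 were lost in at least 1 such fit, and 0 changed sign. Precision is limited by 4 residual degrees of freedom and by the spread between the GFP libraries.

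Numbers of members called changed as follows, and the numbers called over all genes tested changed with the setting too. With only the groups compared, R175H against GFP had 8 higher and 0 lower, R248Q against GFP 2 higher and R273H against GFP 0 higher. In such fits R248Q against R175H had 16 lower, R273H against R175H 10 lower, and R273H against R248Q 2 higher and 2 lower. Over all genes tested, these fits had 351 higher and 187 lower for R175H, 327 higher for R248Q and 1 higher for R273H against GFP. They had 1305 lower for R248Q and 731 lower for R273H against R175H, and 337 higher and 479 lower for R273H against R248Q. DESeq2 gave 11 higher and 0 lower for R175H, 3 higher for R248Q and 10 higher for the mean of the 3 mutants against GFP. Over all genes tested it gave 490 higher and 337 lower for R175H, 416 higher for R248Q and 449 higher for that mean. With a replicate block, R175H against GFP had 0 lower, R248Q against GFP 3 higher and R273H against GFP 0 higher. R248Q against R175H had 0 higher. Over all genes tested, these numbers were in turn 421 lower, 442 higher, 38 higher and 261 higher. Correlations of same-numbered deviations between groups were -0.24 to 0.07. Whether same-numbered libraries shared more than a number was not tested. R273H against GFP had 9 higher with the length correction, 9 with no filter beyond 1 count, 5 with limma-voom and 0 with library size alone. Over all genes, the numbers higher were in turn 202 of 13213, 396 of 18498, 110 of 13213 and 73 of 13213. The main fit had 100 of 13213 higher. The mean of the 3 mutants had 1 lower with the length correction, library size alone, no filter beyond 1 count or DESeq2 size factors. Over all genes, 779, 455, 626 and 430 were lower in these fits, against 402 in the main fit. With the length correction and without GFP replicate 1, R175H against GFP had 0 lower, R248Q against R175H 14 lower, R273H against R175H 13 lower and R273H against R248Q 1 higher.

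With the length correction, the sterol median in R248Q against GFP was 0.0507 and the sterol minus fatty acid difference -0.10. With that correction and without GFP replicate 1, the fatty acid median against GFP was 0.12 in R175H, 0.13 in R248Q, 0.089 in R273H and 0.105 in the mean of mutants. The sterol median was 0.0579 in R248Q, and the difference between arms was -0.0705 in R248Q, -0.0031 in R273H and -0.0053 in the mean of mutants.

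Leaving out 1 library, the ranges were as follows. The numbers called over all genes tested also changed in these fits, so the ranges do not show changes particular to the members. Members higher and lower were 9 to 19 and 0 to 1 in R175H, 2 to 12 and 0 to 4 in R248Q, 0 to 12 and 0 to 1 in R273H against GFP, and 0 to 1 lower in the mean of mutants. R248Q against R175H had 0 to 1 higher and 3 to 15 lower, R273H against R175H 3 to 12 lower, and R273H against R248Q 0 to 1 higher and 0 to 2 lower. The sterol median against GFP was 0.14 to 0.24 in R175H, -0.039 to 0.0515 in R248Q, -0.0106 to 0.10 in R273H and 0.0328 to 0.12 in the mean of mutants. The fatty acid median was 0.13 to 0.36 in R175H, 0.14 to 0.32 in R248Q, 0.0781 to 0.30 in R273H and 0.10 to 0.34 in the mean of mutants. The sterol minus fatty acid difference was -0.22 to 0.0527 in R175H, -0.35 to -0.12 in R248Q, -0.32 to 0.0173 in R273H and -0.30 to -0.01 in the mean of mutants. The lowest and highest differences came without GFP replicate 2 and without GFP replicate 1. Beyond the construction of these fits, the cause of each shift was not tested.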
